A study of Mus musculus with 10 samples.

Results

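Mucins are large glycoproteins whose serine- and threonine-rich stretches carry dense chains of O-linked sugars. The gel-forming mucins are secreted and build the mucus layer, and in the intestine goblet cells make Muc2 for it. Membrane-bound mucins stay anchored at the apical cell surface, where they form part of the glycocalyx and can pass signals through a short cytoplasmic tail. 10 mouse mucin genes were chosen by name, and 8 of them were named in the array's probe-to-gene table, among 19505 named genes. These were the membrane-bound Muc1, Muc4, Muc13, Muc15 and Muc20 and the secreted gel-forming Muc2, Muc5ac and Muc5b. Muc6, a mucin of gastric glands, and Muc16, a membrane mucin, are unnamed here and were not analysed. Each of the 8 genes had 1 probe set.

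The measurements came from mouse intestinal organoids, epithelial structures grown in culture that hold several cell types of the gut lining. 5 arrays held samples labelled KO for IκBα and 5 held WT samples, and the labels give no further allele, driver, sex or treatment. IκBα, encoded by Nfkbia, holds NF-kB transcription factors inactive in the cytoplasm. All samples carry the mark P6, which the labels do not explain. Nothing in the labels tells whether replicates stem from different animals or cultures, and the p-values therefore rest on a spread that may be technical.

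Levels are log2 values per probe set as the authors deposited them, and every change is KO minus WT on that scale. Nfkbia averaged 5.06 ± 0.31 in KO and 9.19 ± 0.38 in WT (SD, n = 5 each). The epithelial markers were all present, with 10 of 10 above the 95th percentile of the negative control probe sets on all 10 arrays. Of these, 4 rose (limma, adjusted p under 0.05; 40.0%, against 15.0% of all tested probe sets) and 3 fell (30.0%, against 11.7%). Krt18 and Cdh1 rose by 1.43 and 0.45, while Cdx2 and Vil1 fell by 2.16 and 1.03. The 95th percentile of the negative controls lay between 7.17 and 7.77, and it serves here as a ceiling for background. A gene at or under it on every array of 1 group has only a bound, given as at least N-fold, which sets the mean of the other group against the mean ceiling. No fold is given where both groups lay under it. No marker of immune cells (8 measured), stroma (9), endothelium (8) or neurons and glia (6) lay above that ceiling on all arrays, and 3, 7, 8 and 5 of them lay above it on none. Of the immune list 3 rose (37.5%, against 15.0% of all tested probe sets) and 2 fell (25%, against 11.7%). Within 1 group, Cd14 lay above the ceiling on all KO arrays (11.12 to 11.53) and on 1 WT array. Lyz2 lay above it on all WT arrays (4.32 to 4.78 on KO arrays, against 8.50 to 9.10). Kit, named after its value was seen, did so too (5.50 to 7.73 on KO arrays, against 7.65 to 8.68), with 0 KO arrays above the ceiling. Csf1r and Itgam rose as well, with fitted changes of 1.53 and 1.56, each with 1 KO array and 0 WT arrays above the ceiling. Of the 6 neural markers 2 rose (33.3%, against 15.0% of all tested probe sets) and 0 fell (0.0%, against 11.7%). Ret and S100b rose by 0.90 and 0.46, S100b under the ceiling on all arrays. The mean level of the immune list was 6.35 to 6.96 on KO arrays and 5.94 to 6.53 on WT arrays. The stromal mean was 5.35 to 5.63 on KO arrays and 5.48 to 5.75 on WT arrays. The endothelial mean was 4.64 to 5.03 on KO arrays and 4.78 to 4.87 on WT arrays, and the neural one 5.80 to 5.92 on KO arrays and 5.51 to 5.68 on WT arrays. The part of other cells in the mucin results was not tested. The Y-linked genes Eif2s3y and Uty also separated the groups, at least 3.46-fold and 1.32-fold lower in KO, and Kdm5d, under the ceiling in both groups, passed as well, so the lower Y-linked signal of the KO arrays and the genotype label cannot be told apart. Within each group, KO replicate 3 and WT replicate 4 were the least like the rest of their own group, with mean Pearson correlations across probe sets of 0.975 and 0.969 to the other 4 arrays. Across probe sets such values are a description only.

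The promoters of the 4 mucin genes that changed are shown first, as the stretches that lie just before their starts. They are RefSeq sequences of build GRCm38.p6, 300 bases long, from 250 bases before the annotated start to 50 bases after it, read 5′ to 3′ along the gene. The Muc1 window is chr3:89228806-89229105 on the + strand, that of Muc20 chr16:32797386-32797685 on the - strand, and that of Muc2 chr7:141690090-141690389 on the + strand. Muc13 has a pair of starts in the table, at chr16:33793787-33794086 and chr16:33794239-33794538, both on the + strand. The table has no window for Muc5ac, Muc5b or Muc15. Capitals mark every match, on the + or - strand, of any of 5 motifs named in the sentences after the sequences.
Muc1: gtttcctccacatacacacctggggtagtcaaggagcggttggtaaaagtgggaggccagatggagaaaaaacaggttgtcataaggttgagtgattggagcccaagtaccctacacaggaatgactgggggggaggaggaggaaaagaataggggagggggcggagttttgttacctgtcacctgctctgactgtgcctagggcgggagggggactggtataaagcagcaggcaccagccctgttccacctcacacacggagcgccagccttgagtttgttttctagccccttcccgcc
Muc20: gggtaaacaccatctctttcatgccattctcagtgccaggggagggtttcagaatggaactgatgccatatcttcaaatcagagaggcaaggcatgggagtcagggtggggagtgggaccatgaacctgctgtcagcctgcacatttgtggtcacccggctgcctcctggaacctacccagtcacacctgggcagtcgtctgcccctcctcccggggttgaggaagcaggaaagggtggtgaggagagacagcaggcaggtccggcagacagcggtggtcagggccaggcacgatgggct
Muc2: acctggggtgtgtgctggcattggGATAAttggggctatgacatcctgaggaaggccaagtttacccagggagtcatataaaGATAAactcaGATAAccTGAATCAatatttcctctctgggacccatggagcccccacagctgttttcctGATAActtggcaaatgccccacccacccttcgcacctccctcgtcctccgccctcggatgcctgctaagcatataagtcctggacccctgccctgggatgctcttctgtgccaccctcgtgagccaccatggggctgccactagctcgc
Muc13, first start: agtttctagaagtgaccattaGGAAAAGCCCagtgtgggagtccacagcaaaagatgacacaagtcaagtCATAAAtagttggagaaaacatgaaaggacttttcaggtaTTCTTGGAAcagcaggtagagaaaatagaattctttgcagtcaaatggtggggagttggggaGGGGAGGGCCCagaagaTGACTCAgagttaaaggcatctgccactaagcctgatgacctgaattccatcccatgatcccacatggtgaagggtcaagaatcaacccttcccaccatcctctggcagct
Muc13, second start: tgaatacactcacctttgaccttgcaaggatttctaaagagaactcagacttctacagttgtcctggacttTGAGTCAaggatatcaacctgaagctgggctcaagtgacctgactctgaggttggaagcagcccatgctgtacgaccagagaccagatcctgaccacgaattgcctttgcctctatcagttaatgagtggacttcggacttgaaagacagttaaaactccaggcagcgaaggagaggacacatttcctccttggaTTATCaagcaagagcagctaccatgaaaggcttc

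The motifs were searched on both strands in all 32851 promoter windows of that length. The loose kappa-B motif GGGNNNNNCC, the core that NF-kB dimers bind, was in 50.8% of them, the STAT motif TTCNNNGAA in 8.3% and the AP-1 motif TGANTCA in 7.81%. The CDX motif TTTATG was in 11.9% and the GATA motif GATAA in 25.4%. The windows of Muc1 and Muc20 held none of the 5 motifs, as did 23.8% of all windows. The Muc2 window held 4 GATA matches and 1 AP-1 match, and 0.204% of all windows held 4 or more GATA matches, a cut equal to the Muc2 count. The windows of Muc4, which did not pass, and of the unmeasured Muc6 and Muc16 held GATA matches as well. The first Muc13 window held 4 kappa-B matches, 3 of which overlap each other between bases -78 and -68. Among them, the same bases from -77 to -68 are counted on both strands. The share of windows with 4 or more kappa-B matches was not counted. This Muc13 window also held STAT, AP-1 and CDX matches. The second Muc13 window held an AP-1 and a GATA match. A match is a run of letters and no measured site.

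Of the 5 measured membrane-bound mucins, Muc1 and Muc20 rose in KO and Muc13 fell, and of the 3 secreted ones Muc2 fell. In all, 2 of 8 rose, 2 fell and 4 did not pass (limma, adjusted p under 0.05). Over all 19572 tested probe sets 26.7% passed, 15.0% higher and 11.7% lower in KO. The 4 mucins that passed had no overlap between KO and WT arrays, which held for 21.4% of all tested probe sets. The median change of the 8 mucins was 0.12, against -0.015 over all tested probe sets. These shares describe 8 genes chosen by name.

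**Figure D1:**
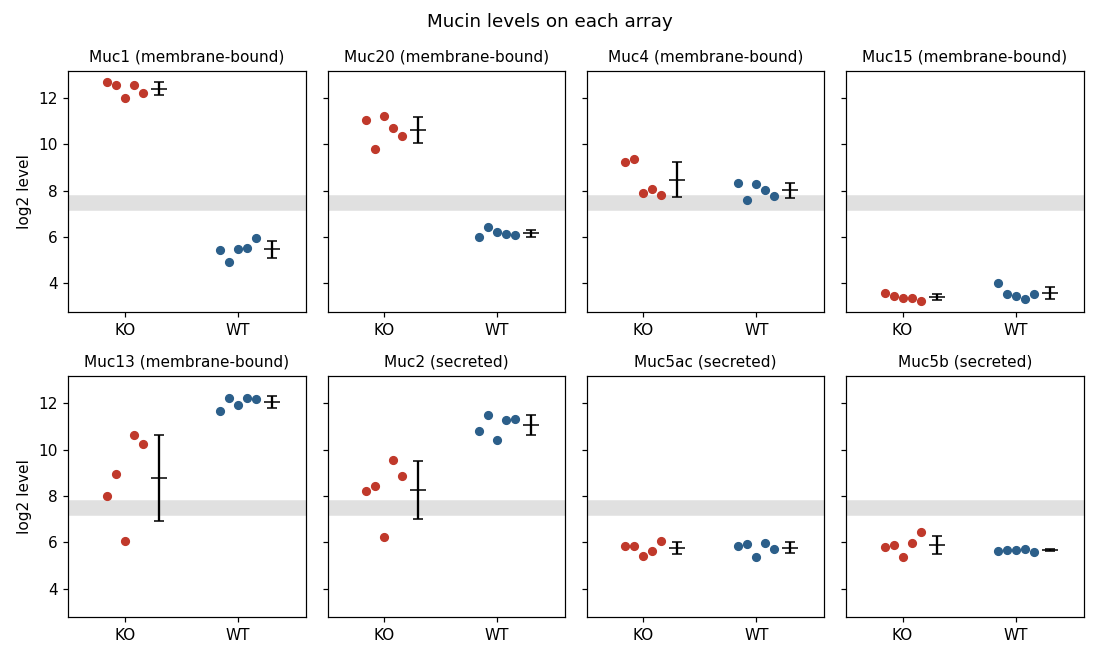
Log2 level of each of the 8 mucins on the 5 KO arrays (red, left) and the 5 WT arrays (blue, right), with the group mean and SD beside the points; the grey band spans the 95th percentile of the negative controls, 7.17 to 7.77. Muc1 and Muc20 sit above the band on all KO arrays and below it on all WT arrays, while Muc15, Muc5ac and Muc5b sit below it on all 10.

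Muc1, a membrane mucin with a cytoplasmic tail that takes part in signalling, rose with the largest fitted change of the 8. Its level was 12.70, 12.56, 12.00, 12.59 and 12.22 on the KO arrays, against 5.44, 4.94, 5.50, 5.52 and 5.94 on the WT arrays. Every KO array lay more than 6 log2 units above every WT array. It rose by 6.94 ± 0.19 (SE), with a 95% confidence interval of 6.53 to 7.36 (limma, adjusted p = 2.85e-10). All WT arrays lay under the background ceiling, so this fitted change is a difference of probe signals. Set against that ceiling, Muc1 was at least 31.6-fold higher in KO, with group means of 12.41 in KO and 5.47 in WT. Its spread was small in both groups, with ranges of 0.70 in KO and 1.0 in WT.

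Muc20, a small membrane mucin known in human cells to associate with the receptor MET, rose as well. Its level was 11.05, 9.80, 11.22, 10.71 and 10.38 on the KO arrays, against 6.01, 6.42, 6.21, 6.14 and 6.09 on the WT arrays. KO replicate 2 was the lowest of the KO arrays, and it still lay more than 3 log2 units above the highest WT array. The change was 4.46 ± 0.23 (SE; limma, adjusted p = 5.66e-08), and against the background ceiling Muc20 was at least 9.2-fold higher in KO, with means of 10.63 in KO and 6.17 in WT.

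Muc4, a long membrane mucin with EGF-like domains, whose rat and human forms bind the receptor ErbB2, did not pass. It had 9.24, 9.37, 7.90, 8.06 and 7.83 on the KO arrays, against 8.36, 7.62, 8.29, 8.04 and 7.77 on the WT arrays. KO replicates 1 and 2 lay above all WT arrays, and the other 3 KO arrays lay within the WT range. The difference of 0.47 had a 95% confidence interval of -0.23 to 1.16 (limma, adjusted p = 0.334), which takes in no change as well as a rise of over 2-fold. In the RefSeq annotation Muc4 and Muc20 are neighbours whose spans overlap. The 2 genes were read by separate probe sets, and their fitted changes were 0.47 and 4.46.

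Muc13, a membrane mucin of the intestinal brush border, fell, and it varied widely among the KO arrays. Its level was 7.98, 8.96, 6.05, 10.65 and 10.26 on the KO arrays, against 11.67, 12.25, 11.94, 12.22 and 12.19 on the WT arrays. All KO arrays lay below all WT arrays, KO replicates 4 and 5 came nearest to them, and KO replicate 3 lay under the background ceiling. The range was 4.60 within KO and 0.59 within WT. The change was -3.27 ± 0.71 (SE; limma, adjusted p = 0.00452), with a 95% confidence interval of -4.82 to -1.72, or 9.66-fold lower. Without KO replicate 3 it was -2.59 (limma, adjusted p = 0.0018). Muc15, a membrane mucin first known from bovine milk, had levels of 3.24 to 3.58 in KO and 3.34 to 4.01 in WT. These lay above at most 29.1% of the negative controls of an array, and its difference of -0.19 did not pass (limma, adjusted p = 0.349).

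Among the secreted mucins, Muc2, the main gel former of intestinal mucus, fell. Its level was 8.20, 8.43, 6.23, 9.55 and 8.85 on the KO arrays, against 10.82, 11.51, 10.44, 11.27 and 11.31 on the WT arrays. KO replicate 3 was the lowest and KO replicate 4 the highest of the KO arrays, as for Muc13, and KO replicate 3 lay under the background ceiling. The change was -2.82 ± 0.50 (SE; limma, adjusted p = 0.0012), with a 95% confidence interval of -3.91 to -1.72, or 7.05-fold lower. Without KO replicate 3 it was -2.31 (limma, adjusted p = 0.000174). In bulk RNA, fewer goblet cells and less Muc2 RNA per cell cannot be told apart.

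Muc5ac, the mucin of the gastric surface and of airway goblet cells, stood at 5.76 ± 0.25 in KO and 5.77 ± 0.24 in WT (SD, n = 5 each). Its 95% confidence interval ran from -0.34 to 0.33 (limma, adjusted p = 0.988). Muc5b, a mucin of airway and salivary glands, stood at 5.89 ± 0.38 in KO and 5.65 ± 0.04 in WT, a difference of 0.24 with an interval of -0.12 to 0.60 (limma, adjusted p = 0.33). Both stayed under the background ceiling on all 10 arrays. No fold is therefore given for them, and their intervals bound the probe signal rather than the RNA. Muc2, Muc5ac and Muc5b are neighbours in the RefSeq annotation, beside Muc6. Of this cluster only Muc2 passed, and a change of Muc5ac or Muc5b RNA under the ceiling could not be read.

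**Figure D2:**
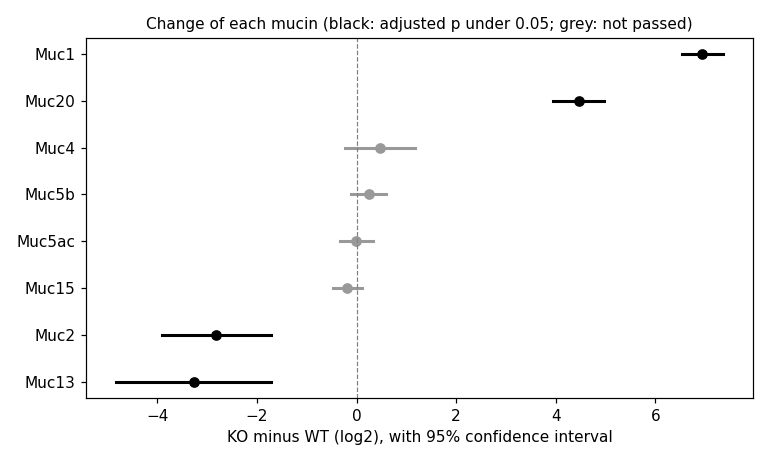
KO minus WT on the log2 scale for the 8 mucins, as points with 95% confidence intervals from limma; black marks an adjusted p under 0.05 and grey the rest. Muc1 (6.94) and Muc20 (4.46) lie to the right of 0, Muc2 (-2.82) and Muc13 (-3.27) to the left, and the 4 grey intervals span 0.

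Whether genes changed unequally was tested on the difference of their log2 levels within each array, for 8 pairs, by an exact two-sided permutation test with p-values adjusted over the 8. Such a difference compares changes, not levels. Levels under the background ceiling carry only a bound, so each difference was also taken with such levels raised to the ceiling of their array, a setting chosen after seeing the data. Muc4 minus Muc13 differed by 3.74 between KO and WT, and by 3.50 with raised levels. With raised levels, the difference between KO and WT was 8.02 for Muc1 minus Muc13, 4.52 for Muc1 minus Muc4 and 5.28 for Muc1 minus Epcam, an adhesion protein of all gut epithelium. On the deposited levels, where Muc1 lay under the ceiling on all WT arrays, these 3 were 10.22, 6.48 and 7.24. Each of these 4 pairs had an exact p = 0.00794 by the permutation test at both settings, with an adjusted p = 0.00907. No smaller exact p can come from 5 against 5 arrays, and all KO values lay on one side of all WT values. The separation in these 4 pairs follows largely from the changes of Muc1 and Muc13 given above, so they add no separate support for them. The pairs of Muc5ac and Muc5b with Muc2 are no test of those 2 genes, which lay under the ceiling on all arrays, and only restate the fall of Muc2.

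The last 2 pairs set Muc2 against other goblet cell products. Muc2 minus Fcgbp, a mucus protein with Fc-binding and von Willebrand-type domains, was -1.65, -1.29, -2.05, -2.25 and -1.55 on the KO arrays, against -0.54, -0.45, -0.78, -0.42 and -0.48 on the WT arrays. Muc2 thus fell by 1.23 more than Fcgbp (exact permutation p = 0.00794, adjusted p = 0.00907), and the groups did not overlap. With the Muc2 level of KO replicate 3 raised to the ceiling it fell by 1.03 more. Muc2 minus Tff3, the trefoil peptide of goblet cells, averaged -1.79 ± 0.87 in KO and -0.44 ± 0.29 in WT (SD, n = 5 each). That difference of -1.35 passed (exact permutation p = 0.0317, adjusted p = 0.0317), but not without any 1 of KO replicates 2, 3, 4 and 5 or WT replicates 2 and 4 (exact permutation test, adjusted p = 0.0635).

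Goblet cell products and regulators were mostly lower beside Muc2. Of the 27 measured, 19 fell (70.4%, against 11.7% of all tested probe sets), 1 rose (3.7%, against 15.0%) and 7 did not pass, with a median change of -1.06 in the fit. Of the 20 that passed, 8 lay under the background ceiling on all arrays of 1 group and 3 in both. This list and those below were chosen with earlier results of these data known, so their shares are a description and no test. The median level of all named probe sets on an array, 6.53 to 6.67, lay under the ceiling. The share over all tested probe sets therefore includes many dim ones. The kallikrein protease Klk1 was at least 9.6-fold lower in KO, and the guanylin precursor Guca2a, which sets salt and water secretion, at least 5.26-fold lower. Ern2, the mucosal sensor of unfolded proteins, fell by 1.11 on the log2 scale, and 2 of its 5 KO arrays lay above the ceiling. The signal of Sytl4, an effector of vesicle release, was lower in KO too, with means of 5.03 in KO and 5.79 in WT, both under the ceiling (limma, adjusted p at most 0.000136 for these 4). Fcgbp fell by 1.59 (limma, adjusted p = 0.0335), whereas Tff3 changed by -1.47 and did not pass (limma, adjusted p = 0.0889). The 1 that rose, named after its value was seen, was the transcription factor Foxa2 (1.32). 12 fell without KO replicate 1, 11 without WT replicate 2 and 12 without WT replicate 5. Over all tested probe sets 2296 fell, and 1943, 1869 and 1942 without these arrays in that order.

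The order of the KO arrays in Muc2 and Muc13 was shared with part of this list. From high to low, Muc2 ran through KO replicates 4, 5, 2, 1 and 3, and Muc13 had the same order. So did 5 of the 27 goblet genes (18.5%), namely Agr2, Ern2, Spdef, Capn9 and Clca1, against 0.764% of all 19505 named genes. Their KO ranges were 4.30, 0.73, 1.49, 0.51 and 3.60 in that order, against 3.32 for Muc2 and 4.60 for Muc13. Capn9 lay under the ceiling on all 10 arrays, and Clca1 varied nearly as widely in WT (range 3.51). Agr2, a disulfide isomerase that mice need to make Muc2, had 6.08, 8.46, 5.51, 9.81 and 8.58 on the KO arrays, against 10.11, 10.49, 9.90, 9.69 and 10.33 on the WT arrays. Here KO replicate 4 reached into the WT range. 13 of the 27 goblet genes (48.1%) had their lowest KO level in replicate 3, as had 22.1% of all named genes. Of the 8 mucins, 5 (62.5%) had their lowest KO level there, Muc1 among them, whose levels on the 5 KO arrays stayed within 0.70 of each other. Muc5ac and Muc5b were among the 5 too, both under the ceiling on all 10 arrays. The orders were looked at after the values were seen and carry no test.

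**Figure D3:**
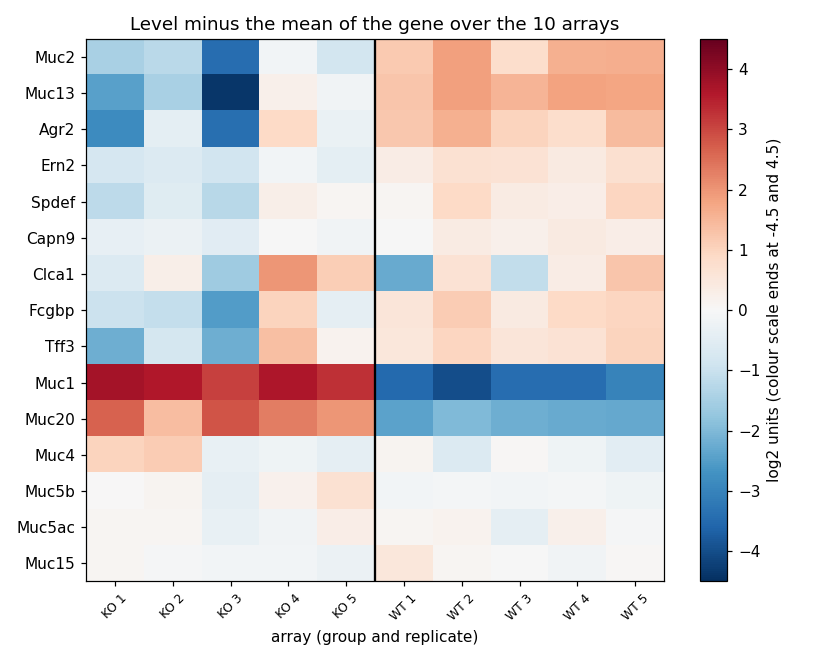
Level of each gene on each array minus its own mean over the 10 arrays, in log2 units, for Muc2, Muc13 and 7 goblet cell genes, then the other mucins; the KO arrays are left of the black line and the WT arrays right of it. KO replicate 3 is the darkest blue of the KO arrays for Muc2 and Muc13, and KO replicate 4 is close to white, while Muc1 and Muc20 are red on all KO arrays.

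For each mucin that passed, the 2 genes with the most similar profile were sought among the 19504 other named genes, by the root mean square difference of levels centred on each gene's mean over the 10 arrays. Genes near the top of such a ranking mostly share the size of the difference between the groups. Closest to Muc1 were Cxcl5, a neutrophil-attracting chemokine, at 0.35, and Bicc1, an RNA-binding protein, at 0.46. Closest to Muc20 were Il1r1, the interleukin-1 receptor, at 0.21, and Aspa, a deacetylase of N-acetylaspartate, at 0.22. Closest to Muc2 were Dnm1, a GTPase of vesicle scission, at 0.44, and Guca2a at 0.46. Closest to Muc13 were Muc2 at 0.55 and Agr2 at 0.64.

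The enzymes that build mucin-type O-glycans changed in both directions. Of the 36 measured, 9 rose (25%, against 15.0% of all tested probe sets), 12 fell (33.3%, against 11.7%) and 15 did not pass, with a median change of -0.00026. Of the 21 that passed, 7 lay under the background ceiling on all arrays of 1 group and 3 in both. Galnt6, which adds the first sugar, was at least 2.62-fold lower in KO, and Gcnt4, which makes branched core structures, at least 4.72-fold lower. The sialyltransferases St3gal1 and St3gal2, which cap core 1 chains, were at least 2.72-fold and 1.14-fold higher, St3gal2 above the ceiling on 3 of 5 KO arrays (limma, adjusted p at most 4.56e-06 for these 4). Genes of mucus folding, granule release and hydration also went both ways, with 6 of 27 higher (22.2%, against 15.0% of all tested probe sets), 7 lower (25.9%, against 11.7%) and 14 not passed, and a median change of 0.0027. Nlrp6, an inflammasome sensor linked to mucus release in mice, was at least 4.96-fold lower in KO. The chloride and bicarbonate exchanger Slc26a3 was at least 8.41-fold lower, and Mep1b, a subunit of the protease meprin that cleaves Muc2, at least 3.77-fold lower. The calcium-activated chloride channel Ano1, above the ceiling on all KO arrays and 2 WT arrays, rose by 4.27 on the log2 scale (limma, adjusted p at most 1.14e-05 for these 4).

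Partners and sheddases of membrane mucins were higher or did not pass. Of the 20 measured, 11 rose (55.0%, against 15.0% of all tested probe sets), 0 fell by limma at the adjusted threshold (against 11.7%) and 9 did not pass, with a median of 0.54. Radixin and moesin (Rdx and Msn), which tie membrane proteins to actin, were at least 5.49-fold and 2.88-fold higher in KO. The protease Mmp14, known to shed human MUC1, was at least 4.07-fold higher. Mesothelin (Msln), a binding partner of the human protein MUC16, rose by 3.79 on the log2 scale, with 1 WT array above the ceiling (limma, adjusted p at most 1.48e-05 for these 4). At an unadjusted p under 0.05, 0 members of this list were lower. The list was chosen with earlier results of these data known, so its shares are a description and no test.

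Markers of gastric and airway mucous cells were tested beside Muc5ac. Of the 19 measured, 4 rose (21.1%, against 15.0% of all tested probe sets), 1 fell (5.26%, against 11.7%) and 14 did not pass, shares near those over all tested probe sets, with a median of 0.07. The trefoil peptide Tff2, made by mucous neck cells of the stomach, was at least 7.67-fold higher in KO. Vsig1, a junction protein of gastric epithelium, rose by 3.24, Foxq1, a factor needed for Muc5ac in the mouse stomach, by 1.94, each with 1 WT array above the ceiling, and Sult1c2, a sulfotransferase, by 0.89 (limma, adjusted p at most 0.0313 for these 4). Tff2 had 11.04, 11.38, 8.66, 10.67 and 10.10 on the KO arrays, against 6.21, 6.15, 5.99, 5.95 and 6.30 on the WT arrays. The 1 that fell, named after its value was seen, was Gkn3, under the ceiling in both groups, and 0 fell without any 1 of KO replicates 1, 4 and 5 or WT replicates 2, 3 and 5. The gastric markers Gkn1, Gkn2, Cldn18 and Sox2, named after their values were seen, did not pass. They lay under the ceiling on all 10 arrays. By limma at an unadjusted p under 0.05, 4 genes of the gastric list were higher and 4 lower. Among 7 further genes, for mucins, mucin-like proteins and the adhesion molecule Mcam, 2 rose (28.6%, against 15.0% of all tested probe sets) and 0 fell by limma. Of these 7, 0 were lower at an unadjusted p under 0.05. Mcam was at least 1.2-fold higher, with 3 of 5 KO arrays above the ceiling, and the sialomucin Cd164 rose by 0.41 (limma, adjusted p = 0.00033 and 0.0269). Only 1 rose without any 1 of KO replicates 4 and 5 or WT replicates 2 and 4. Mucl3 (0.23) and Ovgp1 (0.16) did not pass.

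**Figure D4:**
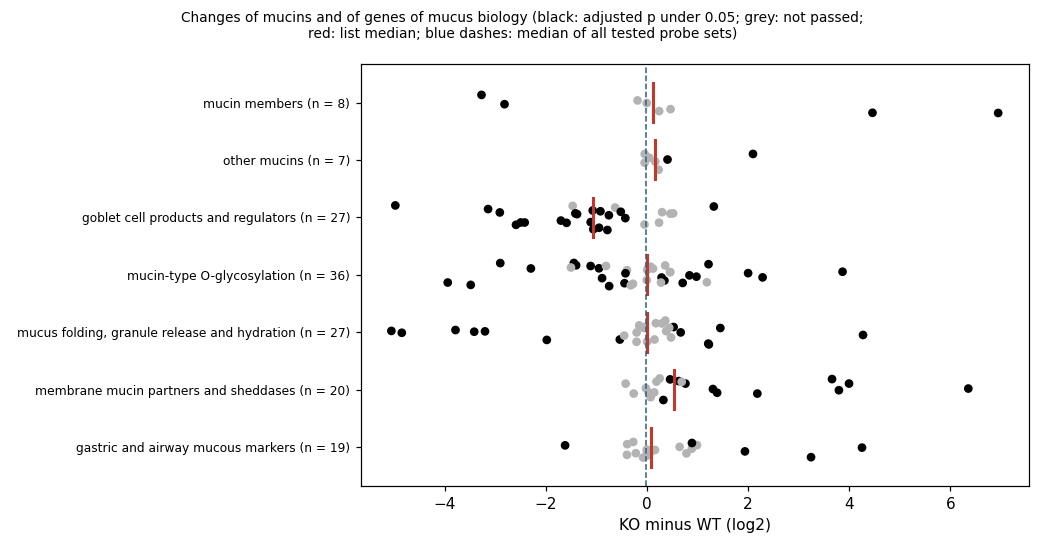
KO minus WT on the log2 scale for each measured gene of the mucins and of 6 lists of mucus biology; black points passed at an adjusted p under 0.05, red bars are list medians and the dashed blue line is the median of all tested probe sets. Values are fitted differences of probe signals, also where a group lay under the background ceiling. The mucins spread from -3.27 to 6.94, the goblet list has its median at -1.06, and the partner list has no black point left of 0.

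The protein-coding genes next to each mucin in the RefSeq annotation were picked by position alone. Around Muc1, Thbs3 and Trim46 passed with fitted changes of 0.64 and 0.80 but lay under the background ceiling on all 10 arrays. Around Muc13, Heg1 (0.53) and Itgb5 (-0.06) did not pass. Tnk2, beside Muc4, was at least 2.25-fold higher in KO, while Muc4 itself did not pass. Smbd1, on the far side of Muc20, had a fitted change of -1.08, with 0 KO arrays and 1 WT array above the ceiling. Ano3, whose span overlaps that of Muc15, passed with a fitted change of 1.73, under the ceiling on all 10 arrays, as Muc15 was. Tollip, beside Muc5b, did not pass (0.15).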

How the data were processed

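RNA from 5 KO and 5 WT organoid samples was measured on 1 array each; 100 ng was labelled with the GeneChip WT PLUS kit, per the labels' protocols. The authors deposited a log2 value for each probe set on each array; the tools listed in the submitters' processing notes are RMA and limma, without versions. Joint normalization and the genome build are not stated. No scanner files, scan dates or detection calls were used; the number of arrays limits precision.

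Of 28846 probe sets, 6640 were controls and 19572 carried 1 gene symbol. The other 2634, which would include any with several symbols, are unnamed here. The values were fitted with limma 3.58.1 (R 4.3.3) on all probe sets, with moderated variances; Benjamini-Hochberg adjustment ran across the 19572, at a threshold of 0.05. The probe set with the highest mean stood for a gene. Exact permutation tests used scipy 1.17.1. The fit was tested on simulated data.

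Members and lists were chosen with earlier results of these data known. Named genes were the mucins, Nfkbia, Y-linked genes (Ddx3y is unnamed here), the 4 smallest p of each list, genes used in pairs, and the 2 nearest profiles of each called mucin; other names follow position or are said to come after their values. Alternatives covered normalization, dim and control probe sets, variances, weights, the replicate block, adjustment, several probe sets per gene, and single arrays left out.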

Additional observations from a re-analysis of the deposited data

Results flagged for a closer look

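A level far from the other 4 arrays of its group was sought in 90 groups of 5 arrays (45 named genes), by the ratio of its gap to the group's range, against a critical value of 0.71. Chance flags about 5% of groups, and 5 were found, none of them among the 8 mucins. Mucl3 stood at 6.50 in KO replicate 1, against 7.26 to 7.43 on the other KO arrays. Guca2a stood at 9.32 in WT replicate 3, against 9.86 to 10.04 on the other WT arrays. Nlrp6 stood at 10.20 in WT replicate 4, against 9.57 to 9.73, and Kdm5d at 4.92 in WT replicate 4, against 6.26 to 6.66. Nfkbia stood at 9.85 in WT replicate 5, against 8.95 to 9.19.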

How the results depend on the processing

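The counts of 2 mucins higher and 2 lower in KO were the same under all 20 alternatives. The changes of Muc1, Muc20, Muc2 and Muc13 kept their direction and their call in each. With single arrays left out, Muc1 ranged from 6.81 to 7.06, Muc20 from 4.31 to 4.67, Muc2 from -3.14 to -2.31 and Muc13 from -3.74 to -2.59. Muc5ac, which did not pass, changed sign: it ranged from -0.103 to 0.0825 with single arrays left out and was 0.14 without KO replicate 3 and WT replicate 4 together, an alternative chosen after seeing the data; the cause was not tested. Leaving out probe sets dimmer than the 25th percentile removed Muc15, so it has no value there. Muc2 minus Tff3 ranged from -1.70 to -1.15 with single arrays left out. With levels under the background ceiling raised to it, a setting chosen after seeing the data, the 8 pairs kept their direction and their side of the threshold. The goblet list had 11 to 20 lower genes with single arrays left out, and 12 without KO replicate 3 and WT replicate 4 together. Over all tested probe sets the lower count was 1855 to 2310 and 2551 in these settings. The list of further mucins with Mcam had 1 to 2 higher genes with single arrays left out. The gastric list had 0 to 2 lower genes with single arrays left out, 2 with arrays centred on the 75th percentile, with array weights, or without KO replicate 3 and WT replicate 4 together, and 0 without those dim probe sets or with adjustment over all probe sets. Whether equal replicate numbers pair the samples was not tested. Deviations of KO and WT arrays with the same number correlated between -0.066 and 0.36. Only replicates 3 and 4 correlated best with their own number, which does not settle whether samples are paired. With the replicate block, 1 gene of the list of further mucins with Mcam rose and 2 genes of the gastric list fell. The depth of signal over background limits Muc5ac, Muc5b and Muc15, which stayed under the ceiling of the negative controls.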
